A study of Mus musculus with 8 samples.

Results

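Transcripts of 10 genes that mark blood were followed through RNA from the spinal dorsal horn: 4 adult haemoglobin genes (Hba-a1, Hba-a2, Hbb-bs and Hbb-bt), the red cell gene Alas2, and 5 neutrophil genes (S100a8, S100a9, Ngp, Camp and Ltf). They were chosen by symbol, as a measure of blood left in the tissue, and all 10 were found among the 49585 gene identifiers of the deposited tables. The series compared adult C57BL/6J mice of 2 genotypes, wild type and miR-96 knock-out, with 4 libraries each. RNA came from the dorsal horn of lumbar segments 4 to 6, taken as bulk tissue, and was sequenced from polyadenylated RNA. No treatment is named for either genotype, and the labels do not say how the knock-out was made, whether the animals were perfused, or whether the libraries come from separate animals. The p-values below therefore rest on library-to-library spread, part of which may be technical.

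Haemoglobin of adult red cells is a tetramer of alpha and beta globin chains, each of which holds a haem group. Young red cells that have lost their nucleus still carry globin mRNA, so blood trapped in vessels adds globin transcripts to RNA from any tissue, although low globin expression has also been described in some neurons and glia. Neutrophils are the most abundant granulocytes of blood. They fill their granules stage by stage while they mature in bone marrow, and Ngp, Camp and Ltf are transcribed mainly in marrow precursors, whereas S100a8 and S100a9 mRNA is also abundant in circulating cells. The leukocyte genes among the 10 are thus called neutrophil genes here, and none was chosen as a marker of lymphocytes or monocytes. Whether other leukocytes added to their levels was not tested.

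The labelled tissue was checked against its markers: each of 13 genes of neurons or dorsal horn neurons was expressed above a mean of 1 FPKM (fragments per kilobase of transcript, scaled to the mapped fragments of the library, the deposited unit), for example Slc17a6, the vesicular glutamate transporter of excitatory spinal neurons, at 96.7 to 136 FPKM. Some libraries stood apart in the 10 genes. Wild type replicate 1 held the highest haemoglobin, and also the largest summed FPKM (665648, against 575008 to 606672 in the other 7) and the fewest genes above 0 (24091, against 24275 to 25560). The libraries numbered 2 in both genotypes held the highest neutrophil levels. Estimated depth was 32000000 to 43100000 fragments per library.

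The promoters of the globin genes are shown as a description of their sequence. Most of each lies before the annotated start, so their likeness says little about how reads are shared between transcripts. Their part in the levels was not tested. Sequences run 5′ to 3′ from 250 bases before to 50 after the annotated start, from RefSeq on GRCm38.p6, whose table held a promoter for all 10 genes. In the globin promoters, capitals mark matches on either strand to GATAA (the core read by GATA factors), CACCC (KLF factors), CCAAT (NF-Y) and TATAA (the core promoter box).
Hba-a1, chr11:32283422-32283721, plus strand: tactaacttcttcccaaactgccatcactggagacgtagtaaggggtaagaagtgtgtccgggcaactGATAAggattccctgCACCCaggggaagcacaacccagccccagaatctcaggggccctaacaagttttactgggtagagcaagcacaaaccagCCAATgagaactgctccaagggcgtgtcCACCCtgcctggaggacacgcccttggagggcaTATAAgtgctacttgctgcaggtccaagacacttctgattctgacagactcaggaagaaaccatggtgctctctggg
Hbb-bs, chr7:103827879-103828178, minus strand: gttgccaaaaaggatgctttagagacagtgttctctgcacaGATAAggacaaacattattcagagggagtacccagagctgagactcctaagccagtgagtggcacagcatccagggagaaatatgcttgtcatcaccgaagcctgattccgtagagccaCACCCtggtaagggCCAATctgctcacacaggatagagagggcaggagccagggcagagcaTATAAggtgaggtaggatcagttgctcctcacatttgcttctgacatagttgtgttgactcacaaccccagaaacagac
Hbb-bt, chr7:103813874-103814173, minus strand: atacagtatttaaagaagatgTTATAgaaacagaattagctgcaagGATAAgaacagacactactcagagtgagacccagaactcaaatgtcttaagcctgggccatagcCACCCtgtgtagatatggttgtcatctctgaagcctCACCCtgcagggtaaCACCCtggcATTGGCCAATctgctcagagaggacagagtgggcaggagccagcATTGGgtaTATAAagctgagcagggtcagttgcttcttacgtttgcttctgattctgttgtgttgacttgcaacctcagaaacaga
Each of the 4 globin promoters held at least 1 match to each of these motifs. Among 32851 mouse promoters of the same length, 25.4% held GATAA or TTATC, 57.5% CACCC or GGGTG, 37.4% CCAAT or ATTGG, and 24.9% TATAA or TTATA. The TATAA match nearest the start began 27 bases before it in Hba-a1, 29 in Hbb-bs and 28 in Hbb-bt. The Hba-a2 promoter (chr11:32296242-32296541, plus strand) shared 297 bases in a row with that of Hba-a1, while the longest run shared by the Hbb-bs and Hbb-bt promoters was 14 bases.

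Promoters of neutrophil genes are shown for contrast. Capitals mark matches on either strand to TTNNGNAA (a C/EBP-type motif, where N is any base), GAGGAA (an ETS-type motif) and TATAA.
S100a8, chr3:90668821-90669120, plus strand: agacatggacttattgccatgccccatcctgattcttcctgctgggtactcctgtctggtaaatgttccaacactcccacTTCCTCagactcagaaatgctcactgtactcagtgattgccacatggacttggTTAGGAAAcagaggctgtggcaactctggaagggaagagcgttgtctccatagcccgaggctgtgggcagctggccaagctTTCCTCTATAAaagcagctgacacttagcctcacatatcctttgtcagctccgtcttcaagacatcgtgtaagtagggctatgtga
Ngp, chr9:110419558-110419857, plus strand: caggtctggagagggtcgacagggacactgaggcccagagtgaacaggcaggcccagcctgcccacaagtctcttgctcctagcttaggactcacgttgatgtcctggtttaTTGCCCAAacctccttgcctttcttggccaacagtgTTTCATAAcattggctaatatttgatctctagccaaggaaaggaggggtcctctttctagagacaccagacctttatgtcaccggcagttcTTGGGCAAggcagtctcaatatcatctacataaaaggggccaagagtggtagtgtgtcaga
Ltf, chr9:111019042-111019341, plus strand: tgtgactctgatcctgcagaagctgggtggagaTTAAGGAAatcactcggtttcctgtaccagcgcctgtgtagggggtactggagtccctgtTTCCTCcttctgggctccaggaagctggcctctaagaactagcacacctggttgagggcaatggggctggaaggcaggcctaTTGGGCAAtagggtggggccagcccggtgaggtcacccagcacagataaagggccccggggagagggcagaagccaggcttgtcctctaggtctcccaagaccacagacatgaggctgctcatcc
The C/EBP-type motif (TTNNGNAA or TTNCNNAA) had 1 match in S100a8, 2 in S100a9, 3 in Ngp and 2 in Ltf, and none in Camp. It lay in 40.7% of all promoters, and once each in Hba-a1, Hba-a2 and Hbb-bs, so its presence did not part the neutrophil genes from the globin genes. The motifs marked in the globin promoters were not particular to them either: Ltf held 1 GATA, 3 KLF and 1 NF-Y match, S100a9 a match to the GATA, the KLF and the core promoter motif, Camp 2 KLF matches and Ngp 1 NF-Y match. GAGGAA or TTCCTC was held by 28.3% of promoters, among them S100a8 and Ltf. These matches are descriptions of letters, not of bound sites.

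**Figure D1:**
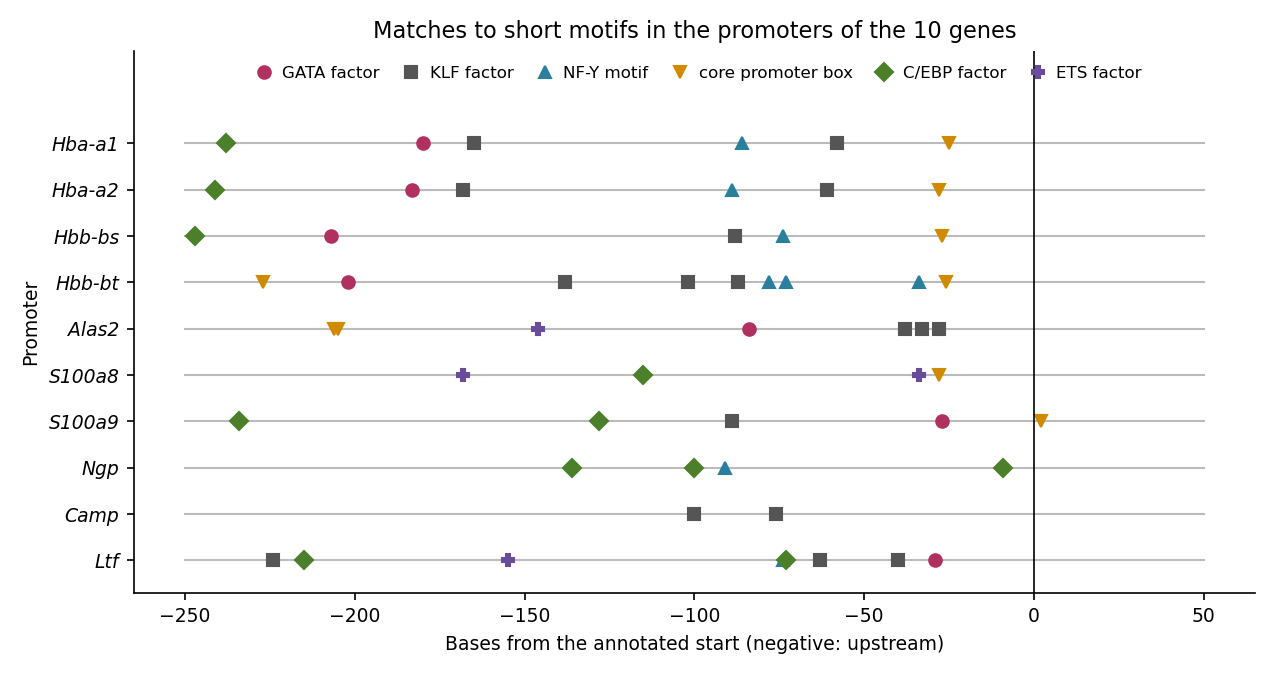
Each line is a promoter, from 250 bases before to 50 after its annotated start (x axis, bases), and each symbol a match to a short motif on either strand (NF-Y motif: CCAAT, core promoter box: TATAA). The 4 globin promoters share a core promoter box near the start, preceded by NF-Y, KLF and GATA matches, but matches to each of these motifs, and to C/EBP, also lie in neutrophil promoters. In Ltf a C/EBP symbol covers most of an NF-Y symbol.

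Alpha globin transcripts were found in every library, at levels that differed far more between libraries than between genotypes. Hba-a1 (chromosome 11, 32283511 to 32284465, GRCm38) had levels of 69.8, 9.29, 8.71 and 1.27 FPKM in replicates 1 to 4 of wild type and 8.28, 14.3, 9.15 and 5.91 in replicates 1 to 4 of knock-out, the order used throughout. Both the highest and the lowest value belonged to wild type, and the knock-out values lay between them. Hba-a2 (chromosome 11, 32296489 to 32297298), the second copy of the alpha globin gene, was at 7.62, 2.13, 2.39 and 0.827 FPKM in wild type and 1.42, 2.43, 1.21 and 0.881 in knock-out. Again wild type replicate 1 was highest and replicate 4 lowest. Many reads of the pair cannot be told apart. Of the 50-base windows of the main Hba-a2 transcript, 86.9% also occur in that of Hba-a1, and 67.5% the other way round. The share of alpha globin FPKM given to Hba-a2 ran from 9.83% in wild type replicate 1 to 39.4% in wild type replicate 4, so the split between the copies is uncertain and their sum is the safer value.

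Beta globin had the same highest and lowest library as alpha globin, while the order between them differed. Hbb-bs (chromosome 7, 103826534 to 103828096), the more abundant adult beta globin gene of this strain here, was at 114, 20.2, 14.7 and 3.65 FPKM in wild type and 13.7, 20.1, 8.73 and 9.24 in knock-out. Hbb-bt (chromosome 7, 103812524 to 103813996), its neighbour, was at 6.59, 2.32, 0.620 and 0.0771 FPKM in wild type and 0.954, 2.30, 0.975 and 1.41 in knock-out. Wild type replicate 1 was the highest and replicate 4 the lowest library for both, and the genotypes overlapped. The beta transcripts share 58.3% (Hbb-bt) and 65.8% (Hbb-bs) of their 50-base windows with each other, so their split is uncertain too. Summed beta over summed alpha globin FPKM ran from 1.38 to 1.97 in wild type and from 0.937 to 1.57 in knock-out. The ratio of the chains thus had a far narrower range than the summed level.

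Together the 4 haemoglobin genes summed to 198, 33.9, 26.5 and 5.83 FPKM in wild type and 24.4, 39.1, 20.1 and 17.4 in knock-out. As a share of the summed FPKM of all genes this was 0.0298% in wild type replicate 1, 0.0010% in wild type replicate 4 and 0.0030% to 0.0068% in knock-out. Haemoglobin was thus a small part of the transcripts in each library. In bulk tissue, fewer red cells and less globin mRNA per red cell cannot be told apart.

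Alas2 (chromosome X, 150547375 to 150570638), which encodes the red cell enzyme of the first step of haem synthesis, was at 1.08, 0.478, 0.284 and 0.130 FPKM in wild type and 0.199, 0.224, 0.472 and 0.344 in knock-out. It had the same highest and lowest library as the globin genes. The range of Alas2 was narrower: wild type replicate 1 was 3.82 times the median of the other 7 libraries for Alas2, against 5.35 times for Hba-a2, 6.76 for Hbb-bt, 8.02 for Hba-a1 and 8.31 for Hbb-bs.

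The neutrophil genes had other libraries at the top. S100a8 (chromosome 3, 90668978 to 90670035) and S100a9 (chromosome 3, 90692632 to 90695721) encode the 2 chains of calprotectin, a calcium- and metal-binding protein of the neutrophil cytosol. S100a8 was at 3.93, 10.6, 1.16 and 0.165 FPKM in wild type and 1.01, 7.88, 1.49 and 0.335 in knock-out. S100a9 was at 7.67, 9.29, 2.43 and 0 FPKM in wild type and 1.35, 9.74, 0.712 and 1.02 in knock-out. Replicate 2 of each genotype was high, wild type replicate 1 came next, and the rest were low.

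The granule genes had the same pair of high libraries. Ngp (chromosome 9, 110419747 to 110423012), which encodes neutrophilic granule protein, was at 0.955, 2.12, 0.423 and 0.0222 FPKM in wild type and 0.264, 2.74, 0.120 and 0.270 in knock-out. For this gene, with a single annotated transcript of 1222 nt, those values correspond to an estimated 95.4 fragments in knock-out replicate 2 and 0.882 in wild type replicate 4. Camp (chromosome 9, 109847379 to 109849617), the gene of the antimicrobial peptide cathelicidin, was at 0.324, 1.06, 0.611 and 0.143 FPKM in wild type and 0.164, 2.09, 0.291 and 0.261 in knock-out. Ltf (chromosome 9, 111019271 to 111042767), the gene of the iron-binding protein lactoferrin, was at 0.766, 2.05, 0.120 and 0 FPKM in wild type and 0.182, 3.37, 0.144 and 0 in knock-out. The values under 0.5 FPKM rest on few fragments, with Camp at an estimated 3.11 to 13.2 outside replicate 2 of each genotype, so their order among the low libraries is not secure.

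**Figure D2:**
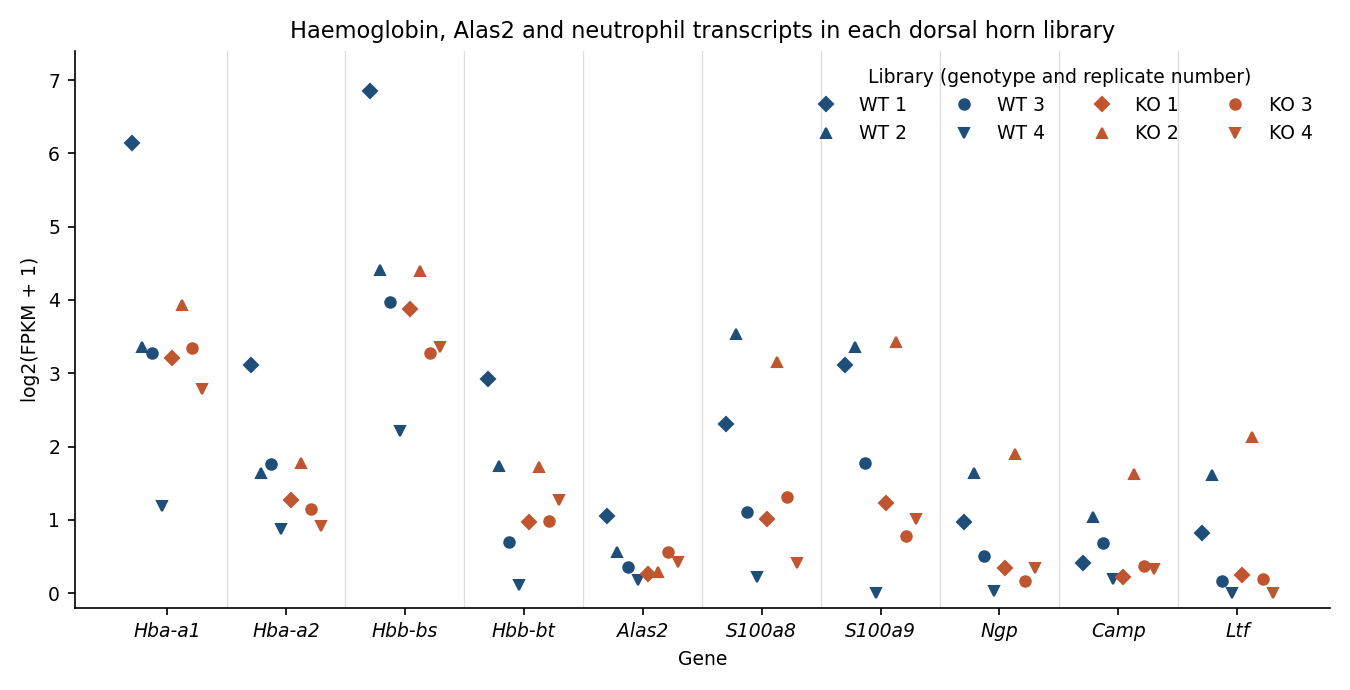
Points are the level of each gene (y axis, log2(FPKM + 1)) in each of the 8 libraries, blue for wild type and orange for knock-out, with a symbol for each replicate number. The diamond of wild type replicate 1 is on top for the 4 haemoglobin genes and Alas2, and the upward triangles of replicates 2 are on top for the 5 neutrophil genes.

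Wild type replicate 1 was thus the highest library for 5 of 5 red cell genes and for 0 of 5 neutrophil genes, whereas replicates 2 of both genotypes were the 2 highest for 5 of 5 neutrophil genes and 0 of 5 red cell genes. Being highest in wild type replicate 1 was not particular to red cell genes. It held for 8 of 13 dorsal horn identity, 7 of 14 lymphocyte, 4 of 10 microglia and 3 of 10 endothelial genes. The share over all genes was not counted. Wild type replicate 4 was lowest, or tied at 0, for all 10 blood genes. The ratio of summed haemoglobin to summed neutrophil FPKM was 14.5 in wild type replicate 1, 1.35 and 1.51 in wild type and knock-out replicates 2, and 17.6 in wild type replicate 4. In the other 4 libraries it lay between 5.58 and 9.24. The ratio of wild type replicate 4 divides by a neutrophil sum of only 0.330 FPKM and is not secure. Over the 8 libraries, Pearson's r between log2(FPKM + 1) values had a median of 0.93 over the 6 pairs of haemoglobin genes (0.84 to 0.97), 0.92 over the 10 pairs of neutrophil genes (0.77 to 0.98) and 0.54 over the 20 pairs across the groups (0.24 to 0.80). By rank the groups were much closer: Spearman's rho had a median of 0.82 within haemoglobin (0.62 to 0.90), 0.87 within the neutrophil genes (0.74 to 0.98) and 0.76 across the groups (0.60 to 0.90). The groups thus differed mainly in which libraries were at the top and by how much, not in the order of all 8. These coefficients are descriptions over the same 8 libraries, in which 1 to 3 libraries carry most of the spread.

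**Figure D3:**
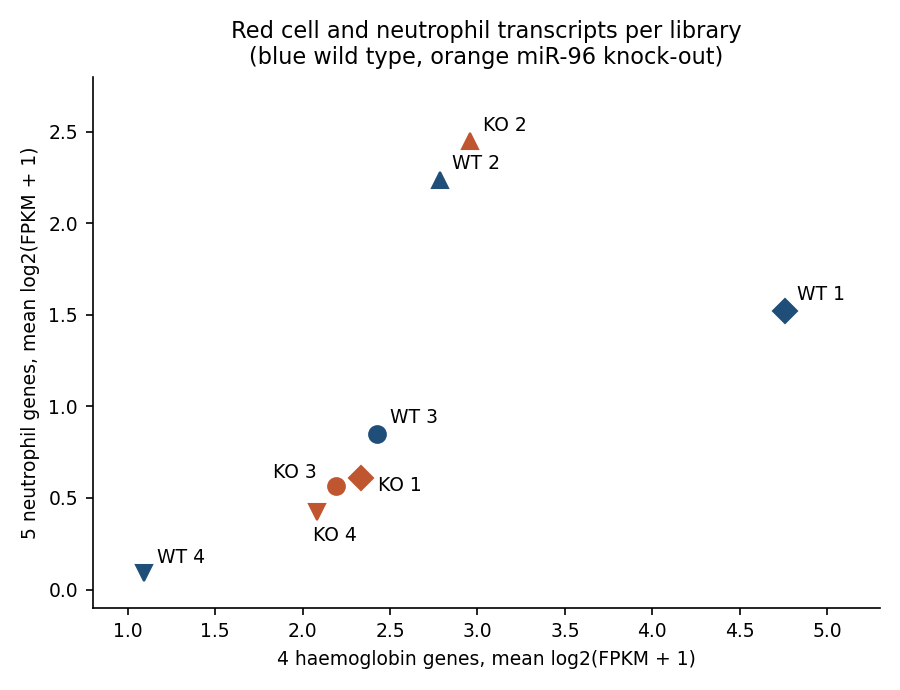
Each point is a library, placed by the mean log2(FPKM + 1) of the 4 haemoglobin genes (x axis) and of the 5 neutrophil genes (y axis). Wild type replicate 1 lies far to the right (4.76 against at most 2.96 elsewhere) and replicates 2 of both genotypes lie on top (2.24 and 2.45 against at most 1.52 elsewhere).

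Whether the genotypes differed was tested in limma over the 15061 genes with a mean of at least 1 FPKM, on log2(FPKM + 1), a scale that understates the change of low genes. Of the 10 genes, 6 passed this filter, and Alas2, Ngp, Camp and Ltf did not. None of the 6 passed an adjusted p of 0.05 or had an unadjusted p under 0.05. Over all genes tested 0 (0% called) passed the adjusted threshold and 831 (5.52%) had an unadjusted p under 0.05. No member had its 4 knock-out libraries all above or all below wild type, a separation that 3.03% of all genes tested showed. The log2 fold change, knock-out minus wild type, was -0.63 for Hbb-bs (SE 0.78, limma adjusted p = 0.739), -0.57 for Hba-a2 (SE 0.40, limma adjusted p = 0.622), -0.17 for Hba-a1 (SE 0.82, limma adjusted p = 0.938) and -0.13 for Hbb-bt (SE 0.52, limma adjusted p = 0.924). S100a9 was at -0.45 (SE 0.78, limma adjusted p = 0.813) and S100a8 at -0.32 (SE 0.74, limma adjusted p = 0.866). The SE was larger than the size of the fold change for each of these except Hba-a2.

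The 4 genes under the filter, tested without it, had log2 fold changes of -0.16 for Alas2 (SE 0.18), -0.10 for Ngp (SE 0.45), 0.055 for Camp (SE 0.32) and -0.0078 for Ltf (SE 0.52), with limma adjusted p of 0.772 to 0.997. The median log2 fold change of the 4 haemoglobin genes was -0.37, against 0.014 over all genes tested. The wild-type mean FPKM was the higher one for 8 of the 10 genes, and the wild-type mean log2(FPKM + 1) for 9 of 10. Over all genes tested, 46.9% were lower in knock-out on that log scale. Without wild type replicate 1 the wild-type mean FPKM was higher for 4 of 10. The SD of FPKM was larger in wild type than in knock-out for 5 of 5 red cell genes (for Hbb-bs 51.0 against 5.27) and for 1 of 5 neutrophil genes. All 5 red cell genes were highest in wild type replicate 1, and the share over all genes was not counted. The summed FPKM of all genes also had the larger SD in wild type (36559 against 9474), so a wider spread there was not limited to red cell genes.

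The direction of the haemoglobin difference rested on wild type replicate 1. On the mean log2(FPKM + 1) of the 4 genes, wild type was at 2.77 ± 1.51 (SD, n = 4) and knock-out at 2.39 ± 0.39 (SD, n = 4), a difference of -0.38. The difference was 0.29 without wild type replicate 1 and -0.93 without wild type replicate 4. Gene by gene, leaving out wild type replicate 1 gave log2 fold changes of 0.71 for Hba-a1 (SE 0.52), 0.20 for Hbb-bs (SE 0.50), 0.39 for Hbb-bt (SE 0.36) and -0.15 for Hba-a2 (SE 0.26), with limma adjusted p of 0.828 to 0.928. For the 5 neutrophil genes the mean was 1.17 ± 0.92 (SD, n = 4) in wild type and 1.01 ± 0.96 (SD, n = 4) in knock-out, a difference of -0.16. It was 0.19 without wild type replicate 2, -0.64 without knock-out replicate 2, -0.53 without wild type replicate 4, 0.031 without knock-out replicate 4 and -0.29 without replicates 2 of both genotypes, an alternative chosen after the data had been seen.

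**Figure D4:**
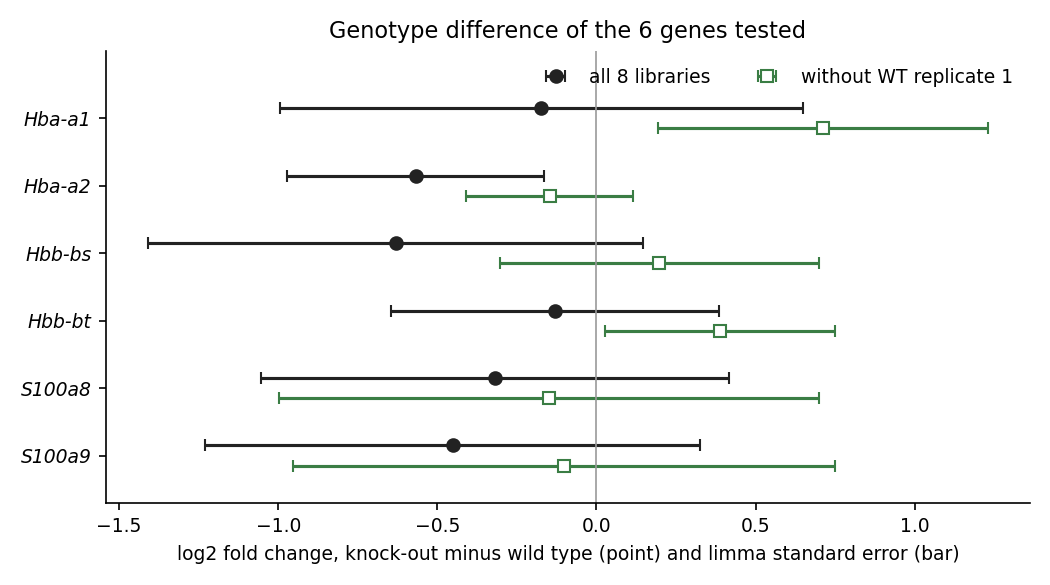
Points are log2 fold changes on the log2(FPKM + 1) scale (x axis, knock-out minus wild type) and bars 1 limma SE to each side, for the 6 genes tested, with all 8 libraries (black) and without wild type replicate 1 (green). Black points lie left of 0 for all 6, and 3 of the 4 haemoglobin genes cross to the right without that library.

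Other genes of red cells are given by list counts, and Slc4a1, Sptb and Bpgm were named after their values were seen. Of 6 embryonic or minor globin genes, Hba-x, Hbb-bh1 and Hbb-bh2 were listed at 0 in all 8 libraries and Hbb-y was above 0 in 1 library (0.0409 FPKM), so the embryonic globins were at or near 0. Hbq1b was at 0.952 to 2.60 FPKM. A red cell membrane marker was also low: Slc4a1, the anion exchanger of the red cell membrane, was at 0.309, 0.586, 0.0456 and 0 FPKM in wild type and 0.167, 0.182, 0 and 0.0276 in knock-out. Slc4a1 was thus highest in wild type replicate 2, not in replicate 1.

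Of 25 red cell membrane and erythroid factor genes found, 11 were tested, 5 lower and 6 higher in knock-out, with a median log2 fold change of 0.037 and none at an unadjusted p under 0.05. Several of these are expressed in neurons as well. In wild type replicate 1 they went both ways, and 6 of the 25 were highest there. The most abundant, the mitophagy receptor gene Bnip3l, was at 119 FPKM there and 106 to 118 in the other 7 libraries, and Mkrn1, a ubiquitin ligase gene, at 103 and 84.9 to 95.8. Bpgm, which makes the red cell regulator bisphosphoglycerate, was at 89.0 FPKM in that library and 51.3 to 69.8 in the other 7. Ank1, ankyrin 1, was at 45.3 FPKM there and 76.7 to 88.8 in the other 7 libraries, Add2, beta adducin, at 48.5 and 74.6 to 88.7, and Sptb, beta spectrin, at 30.8 and 56.7 to 68.5. All 8 haem synthesis enzymes other than Alas2 were tested (5 lower, 3 higher in knock-out, median -0.068, none at unadjusted p under 0.05). Their summed FPKM was 198 to 220 in wild type and 196 to 220 in knock-out. Wild type replicate 1, at 216, was not set apart in them as it was in Alas2.

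The globins of nervous tissue had their own pattern. Cygb, cytoglobin, was at 51.9 to 68.9 FPKM in wild type and 46.1 to 53.2 in knock-out (log2 fold change -0.22, SE 0.10, limma adjusted p = 0.62, unadjusted p = 0.0493), and Ngb, neuroglobin, at 9.39 to 14.3 and 7.97 to 12.01 (-0.25, SE 0.16). Both were highest in wild type replicate 1, as haemoglobin was, but over a far narrower range.

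Genes that bind or break down free haemoglobin and haem were all tested (4 lower, 4 higher in knock-out, 2 at unadjusted p under 0.05, both higher). Those 2 were Hp, haptoglobin, at 0.140 to 0.617 FPKM in wild type and 1.93 to 3.86 in knock-out, and Hpx, hemopexin, at 0.117 to 0.743 and 1.60 to 4.35, with limma adjusted p of 0.159 and 0.209. Both were named after their values were seen. They are plasma proteins made mainly in liver, and their libraries were ordered otherwise than those of haemoglobin. Alb, serum albumin, was at 3.69, 5.94, 0.0303 and 0.0301 FPKM in wild type and 11.7, 20.7, 33.0 and 27.1 in knock-out. Of 11 tested genes of plasma proteins made in liver, 10 had an unadjusted p under 0.05, all higher in knock-out, and 0 passed the adjusted threshold. The summed level of that list was nonetheless highest in wild type replicate 1 (172 FPKM), where Trf, transferrin, which nervous tissue also expresses, made up 156.

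Other granulocyte and myeloid genes in part repeated the order of the members. Lcn2, lipocalin 2 of the secondary granules, was at 2.29, 13.3, 1.12 and 0.614 FPKM in wild type and 1.56, 8.68, 0.952 and 0.748 in knock-out. Chil3, a chitinase-like protein of myeloid cells listed here with monocyte genes, was at 0.400, 1.91, 0.197 and 0 in wild type and 0.144, 1.80, 0.177 and 0.286 in knock-out. Replicate 2 was the highest library of each genotype for both. Of 10 genes of the later granules, 4 were tested (3 lower, 1 higher in knock-out, median -0.13). The most abundant of them are expressed by other cells too and followed the members less closely. Pglyrp1, a peptidoglycan-binding protein, was highest in knock-out replicate 2 (26.8 FPKM) but at 18.0 in wild type replicate 2, within the range of the other libraries. Mmp9, a gelatinase, was highest in wild type replicate 2 (12.7) and at 9.56 in knock-out replicate 2. Lyz2, lysozyme, was highest in wild type replicate 1 (23.4) and at 11.7 in knock-out replicate 2.

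Genes of the earliest neutrophil precursors were low. Of 5, only Prtn3 reached the filter (0.898 to 1.57 FPKM), and Mpo, myeloperoxidase, was at most 0.359, Elane, neutrophil elastase, at most 0.355, and Ctsg, cathepsin G, at most 0.0776. Of 13 genes of circulating neutrophils only Csf3r, the receptor of granulocyte colony-stimulating factor, was tested (2.40 to 4.00 FPKM). Retnlg, abundant in mature mouse neutrophils, was at 0.656, 0.511, 0.0896 and 0.0446 in wild type and 0.0817, 1.63, 0.282 and 0.0542 in knock-out, highest in knock-out replicate 2. Cxcr2 and Ly6g, defining markers of mature neutrophils, reached at most 0.0492 and 0.0811. None of the genes tested in these 3 lists had an unadjusted p under 0.05.

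Many markers of the other blood cells were low, but some genes of each list were well above the filter. Of 14 lymphocyte genes, 11 stayed under 1 FPKM in all 8 libraries, the others being Trbc2, Ighm and Igkc. The T cell marker Cd3e reached at most 0.253 FPKM. Igkc, the immunoglobulin kappa constant gene, was at 35.8 FPKM in wild type replicate 1 and at most 0.461 in the other 7 libraries. Ighm, the immunoglobulin mu heavy chain gene, was present throughout, at 38.8 to 58.0 in wild type and 29.2 to 37.2 in knock-out (log2 fold change -0.41, SE 0.14, limma adjusted p = 0.62, unadjusted p = 0.0130). Its genotypes did not overlap, a separation that 3.03% of all genes tested showed. Of 8 monocyte genes, 1 was tested, Fn1, the fibronectin gene that other cells express too, at 13.04 to 40.7 FPKM. The monocyte markers Ccr2 and Ly6c2, named after their values were seen, reached at most 0.203 and 0.244. Of 9 platelet genes, 3 were tested. Pf4, platelet factor 4, which is in the border macrophage list too, was at 1.55 to 4.05 FPKM. Gp1bb, a platelet glycoprotein gene, was at 1.54 to 4.71. Ppbp and Tubb1, also named after their values were seen, reached at most 0.120 and 0.0218. The third, Itga2b, the platelet integrin alpha IIb, was at 6.15 FPKM in wild type replicate 1 and 2.99 to 3.99 in the other 7. Gp1bb was highest in wild type replicate 1 too. The part of Igkc, Gp1bb and Itga2b in the haemoglobin pattern was not tested.

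**Figure D5:**
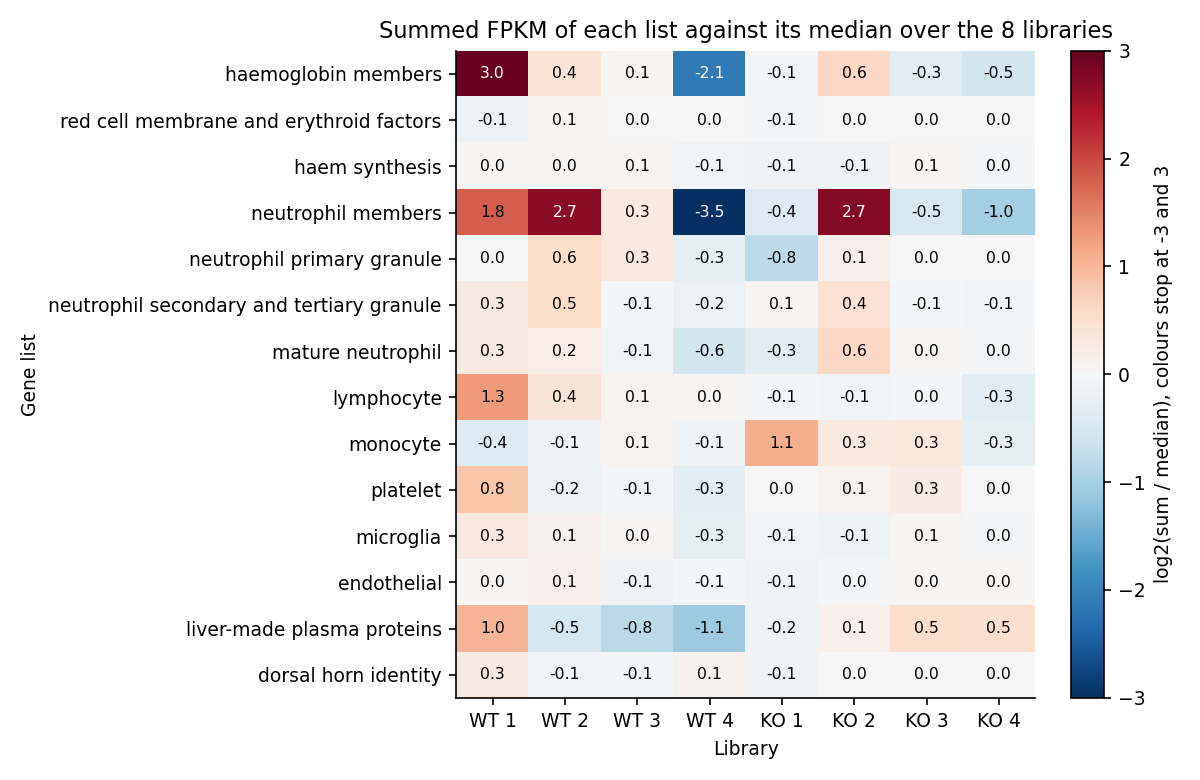
Cells give the log2 ratio of a list's summed FPKM in a library (columns) to its median over the 8 libraries (rows are lists). The haemoglobin row is far above its median in wild type replicate 1 and below it in wild type replicate 4, and the neutrophil row is above it in wild type replicates 1, 2 and 3 and knock-out replicate 2. Also highest in wild type replicate 1 are the lymphocyte (1.28), liver-made plasma protein (1.03), platelet (0.84), microglia (0.30) and dorsal horn identity (0.26) rows. The monocyte row is highest in knock-out replicate 1. These sums are carried by their most abundant genes, some of which other cells express.

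The genes whose levels followed the members most closely over the 8 libraries were found among 13105 tested genes with a name, by Pearson's r with the mean log2(FPKM + 1) of each group, as a description. For haemoglobin they were Plk3 (r = 0.98), Sp3os (0.98), Smim4 (0.98), Ninj1 (0.96) and Eci2 (0.96), none of which is a red cell marker. Their range was small, for example 7.77 to 11.8 FPKM for Plk3, and 88 genes had r above 0.9. Without wild type replicates 1 and 4, the 2 libraries farthest from the median, none of those 88 kept r above 0.9 and the 5 named had r of 0.55 to 0.86. The likeness therefore rested on those libraries. For the neutrophil genes they were Porcn (r = 0.97), Lcn2 (0.95), Lrg1 (0.92), Klhl35 (0.88) and Armcx5 (0.88), of which Lcn2 and Lrg1, a secreted glycoprotein, are known from neutrophil granules. Only 3 genes had r above 0.9, and 2 of them, Porcn (0.91) and Lcn2 (0.91), kept it without replicates 2 of both genotypes.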

How the data were processed

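Bulk polyA RNA-seq of the lumbar dorsal horn was deposited as 1 table per library, with 4 libraries for each genotype. Per the file headers the authors deposited FPKM per gene with a locus. The submitters' processing notes list Cufflinks, HISAT2 and SAMtools with the build mm8, without versions or use of strand. The deposited locus equalled the GRCm38 annotation (GENCODE M21) for 91.5% of 49326 identifiers with a symbol, so positions are on GRCm38. Knock-out was compared with wild type in limma 3.58.1 (R 4.3.3, two-sided, mean-variance trend, robust) on log2(FPKM + 1) over 15061 genes with mean FPKM of at least 1, Benjamini-Hochberg adjusted, after the fit was tested on simulated data. Depth was estimated from the FPKM steps of single-transcript genes of at least 3000 nt, assuming 200-nt fragments. By library, 97.7% to 98.5% of values came out whole to within 0.15 fragments. Depth was chosen to make these same values whole. The 30% expected at a depth fixed in advance is thus not the chance level here. Other lists gave counts and up to 4 genes by highest mean FPKM, by rule. Defining markers and single genes outside that rule (among them Slc4a1, Sptb, Bpgm, Hp and Hpx) were named after their values were seen. Some listed genes are not reported here by name. Members and lists were chosen with earlier results of these data known. Gene sequences came from RefSeq (GRCm38.p6) promoters and GENCODE transcripts. Alternatives were a pseudocount of 0.1, no filter, a stricter filter (mean of 5 FPKM), scaling by median ratios or quantiles, limma without trend, library weights, the replicate number as a block, haemoglobin as a covariate, and each library left out.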

Additional observations from a re-analysis of the deposited data

Results flagged for a closer look

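In groups of 4 libraries, 42 quantities (the 10 genes, summed levels and other genes named above) were searched for a library whose gap to the nearest other exceeded Dixon's 95% critical value as a share of the group's range. Of 84 groups, 20 had one. Chance flags about 1 in 20 groups of independent quantities, but the count is not read against that share, since some of these genes were named after their values were seen, some entered through 1 high library, and the sums repeat the members. In wild type, replicate 1 stood apart on the high side for Hba-a1 (69.8 FPKM, others 1.27 to 9.29), Hbb-bs (114, others 3.65 to 20.2), alpha globin summed (77.4), beta globin summed (121) and the 4 haemoglobin genes summed (198), and likewise for Igkc (35.8), Trf (156, others 37.2 to 44.1), Itga2b (6.15) and Gp1bb (4.71). Wild type replicate 2 stood apart for Lcn2 (13.3). In knock-out, replicate 2 stood apart for all 5 neutrophil genes, S100a8 (7.88), S100a9 (9.74), Ngp (2.74), Camp (2.09) and Ltf (3.37), for their sum (25.8, others 1.89 to 2.97), and for Lcn2 (8.68), Retnlg (1.63) and Chil3 (1.80). Knock-out replicate 3 stood apart for Ngb (12.01, others 7.97 to 8.40). No such library was found in wild type for S100a8, S100a9, Ngp, Camp or Ltf. Replicates 1 and 2 were the highest of wild type for all of these but Camp. For Camp, replicate 3 (0.611 FPKM) lay above replicate 1 (0.324).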

How the results depend on the processing

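The count of genes past limma's adjusted p of 0.05 was 0 with all libraries and in each alternative but library weights, which gave 1627, and leaving out 1 library, which gave 0 to 1 (1 without knock-out replicate 2). With the haemoglobin level as a covariate it was 0 (1213 at unadjusted p under 0.05). A replicate block in the fit gave 0 (790 at unadjusted p under 0.05), and the block made no call among the 10 genes. The labels do not say whether the numbers pair libraries. Deviations of same-numbered libraries correlated at -0.11, -0.055, 0.024 and 0.14, and no wild-type library correlated best with its own number. With so few libraries these values cannot decide whether same-numbered libraries shared handling. None of the 6 tested members passed in any alternative that gave them a result. The stricter filter kept only Hba-a1 and Hbb-bs, and with haemoglobin as a covariate no member was read out. Alas2, Ngp, Camp and Ltf were tested only without the filter, where none passed. The sign turned with library weights for Hba-a1 (0.24), Hbb-bt (0.50), S100a8 (0.44) and S100a9 (0.18), and with a pseudocount of 0.1 for Hbb-bt (0.25). Leaving out 1 library gave -0.94 to 0.71 for Hba-a1, -1.35 to 0.20 for Hbb-bs, -0.55 to 0.39 for Hbb-bt, -0.88 to 0.26 for S100a8, -0.89 (without wild type replicate 4) to -0.15 (without wild type replicate 1) for Hba-a2 and -1.14 (without wild type replicate 4) to -0.019 (without wild type replicate 2) for S100a9. The cause was not tested, beyond the libraries named in the report. Depth limits the granule genes, which lie below 0.5 FPKM in most libraries.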

Other observations

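Lists of cells that border on blood in the tissue spread less over the libraries than the members did. Endothelial genes summed to 320 to 383 FPKM in wild type and 317 to 357 in knock-out (10 tested, 4 lower and 6 higher in knock-out, none at unadjusted p under 0.05). In wild type replicate 1 the sum was 356, within the range of the other libraries, against a haemoglobin sum of 198 that was the highest of the 8. Mural cell genes summed to 49.3 to 78.4 and 52.3 to 71.9 FPKM (7 tested, 3 lower and 4 higher, none at unadjusted p under 0.05), with the highest sum in wild type replicate 1. Genes of border macrophages summed to 5.70 to 9.96 and 7.70 to 13.3 FPKM and were highest in knock-out replicate 1. Genes of dividing cells summed to 3.47 to 4.85 and 4.08 to 5.18 FPKM, and wild type replicate 1 had the lowest sum.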
